A study of Caenorhabditis elegans with 2 samples.

Results

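The RNA genes described here are 7 of the 46890 annotated nuclear genes of the nematode Caenorhabditis elegans: rpr-1, the gene of the RNA of ribonuclease P (RNase P), mrpr-1, the gene of the RNA of the related ribonuclease MRP, and srpr-1.1, srpr-1.2, srpr-2.1, srpr-2.2 and srpr-3, which encode the RNA of the signal recognition particle (SRP). They were chosen by name with the peaks at them already known, from peaks whose summit lay within 250 bp of the gene, so their signals, calls and positions are given as a description, with no test. In the annotation all 7 carry the broad ncRNA biotype, which holds 7764 genes.

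RNase P is a ribonucleoprotein enzyme whose RNA forms the active site that cuts the leader from tRNA precursors. RNase MRP shares most of its proteins with RNase P in the species where it has been studied and works mainly on ribosomal RNA precursors. SRP is the ribonucleoprotein that recognises the signal sequence of a nascent secretory or membrane protein and brings the ribosome to the endoplasmic reticulum, and its RNA is the scaffold on which the SRP proteins assemble. In vertebrates all of these RNAs are made by RNA polymerase III, the polymerase that also makes tRNAs. In vertebrates the RNase P and MRP RNA genes are started from elements that lie before the gene, a proximal sequence element and a TATA box, whereas tRNA genes are started from an A box and a B box within the gene.

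The peaks come from chromatin immunoprecipitation followed by sequencing (ChIP-seq) of CEH-45, a homeodomain protein of the goosecoid class, in late embryos, for which the labels give 2 hours as the age. There is 1 group of 2 biological replicates, both of strain RW12292, which carries the allele st12292[ceh-45::TY1::EGFP::3xFLAG] on chromosome I, so no group without the tagged protein can be set against it. Whole embryos of this 1 edited strain were used, precipitation was through GFP, and in whole organisms the signal cannot be divided among cell types. The lists hold no expression values, so the labelled stage and tissue could not be checked against marker genes. Depth is unknown because no list gives read counts, and the signal of a peak is a value set by the authors whose relation to depth and to the control is not stated. Positions are on build ce11.

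All of the authors' thresholded sets held peaks at some of these RNA genes. The sets keep peaks with an irreproducible discovery rate (IDR) of at most 0.01. The IDR is an estimate of how likely a peak of that rank is not to be found again in the other list. The authors gave a larger and a conservative set derived from both replicates and a set for each replicate, each with a longer ranked list of candidates (108916 in the larger list). In the larger set, which holds 548 peaks, 5 of the 7 genes had a summit within 250 bp: rpr-1, mrpr-1, srpr-2.2, srpr-1.1 and srpr-1.2. Over all annotated genes 1.66% had one, over tRNA genes 25%, over genes of the ncRNA biotype 2.36%, over snoRNA genes 13% and over snRNA genes 4.65%; because the genes were chosen with these calls known, nothing follows from the difference. The conservative set had a peak at 6 of the 7, which adds srpr-2.1, against 1.48% of all annotated genes. The set of replicate 1 had peaks at 4 of the 7, where 0.932% of all annotated genes had one, and the set of replicate 2 at 5, where 0.857% did. rpr-1, mrpr-1 and srpr-2.2 had a peak in all 4 sets, and srpr-3 had none in any of them.

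The RNase P RNA gene had the highest signal of the 7. rpr-1 (WBGene00045238, chromosome I, 13463955 to 13464207, plus strand, 253 bp) lies in an intron of ints-8, an Integrator subunit gene on the opposite strand. Its peak at 13463826 to 13464129 had a signal of 239.97 in the larger list, rank 13 of the 548 thresholded peaks by signal. The signal was 115.0 in the list of replicate 1 and 112.8 in that of replicate 2, the closest pair of values among the 7 genes (mean 113.9 ± 1.60, SD, n = 2).

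The RNase MRP RNA gene had a lower signal than rpr-1 in each list. mrpr-1 (WBGene00045095, chromosome II, 7200233 to 7200418, plus strand) overlaps no other gene, and the protein-coding gene pcrg-1, a homologue of the parkin co-regulated gene, begins 130 bp past its end on the same strand. The peak at 7200117 to 7200420 had a signal of 140.2 in the larger list and rank 84 of 548. The signals were 74.0 in replicate 1 and 66.2 in replicate 2 (mean 70.1 ± 5.56, SD, n = 2). Its summit lay 280 bp before the start of pcrg-1, so it also falls in the promoter region of that gene, and the summits alone do not divide it between the genes. The signal of rpr-1 was 1.55 times that of mrpr-1 in replicate 1 and 1.70 times in replicate 2.

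The starts of rpr-1 and mrpr-1 share 2 words at nearly the same places, and the window of mrpr-1 is printed to show them. The sequence is that of RefSeq, assembly WBcel235 (ce11), as are those further on. It runs 5′ to 3′ over chrII:7200143-7200272, plus strand, with 90 bases before the gene and its first 40; the capitals mark the shared word and the TATA run.
mrpr-1: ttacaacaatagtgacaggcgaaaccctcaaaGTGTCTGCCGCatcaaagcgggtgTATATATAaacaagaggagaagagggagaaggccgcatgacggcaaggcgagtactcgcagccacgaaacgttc
The word GTGTCNGCCGC, the longest stretch with at most 1 mismatch that the 90 bases before both genes share, looked for after both had been read, began 56 bases before rpr-1 and 58 bases before mrpr-1 on the strand of the gene. TATATA began 30 bases before rpr-1 and at 34 and 32 bases before mrpr-1. Among the 46884 windows from 250 bases before to 50 bases after an annotated gene start, with both strands searched, GTGTCNGCCGC stood in 0.0853%, in 6 of 346 snoRNA genes, in none of 129 snRNA genes and in none of 612 tRNA genes. TATATA stood in 12.3% of all windows, in 20.9% of those of snRNA genes, in 7.84% of those of tRNA genes and in 7.23% of those of snoRNA genes. It was also in the windows of srpr-1.1, in a run that began 189 bases before the gene, and of srpr-1.2, at 216 bases before it, so 4 of the 7 genes held it. Within the gene the sequences differ: they were identical at 49.8% of aligned positions, which is within the 43.0% to 52.0% seen between unlike genes of this set. Over the 60 bases upstream, shared words included, identity was 53.7%, and the other pairs of unlike genes had 41.8% to 47.0%. Over 250 bases upstream it was 53.7%, against 45.8% to 50.2%. The window of rpr-1 itself is not printed.

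The SRP RNA genes are a family of near copies with different surroundings. srpr-1.2 (WBGene00045168, chromosome III, 4369468 to 4369766, plus strand, 299 bp) lies in an intron of ckb-2, a choline kinase gene on the same strand. srpr-1.1 (WBGene00045189, chromosome III, 4378909 to 4379206, minus strand, 298 bp) ends 1 bp from the 3′ end of pals-26, which is on the opposite strand. srpr-2.2 (WBGene00195017, chromosome III, 5031410 to 5031708, minus strand, 299 bp) lies in an intron of klp-6, a kinesin gene on the opposite strand, and its start is overlapped by the ncRNA gene R144.16. srpr-2.1 (WBGene00195016, chromosome III, 5211220 to 5211518, plus strand, 299 bp) overlaps no other gene. srpr-3 (WBGene00195018, chromosome V, 9293334 to 9293632, minus strand, 299 bp) is covered by a second annotated ncRNA gene, F44A2.13, so a peak there cannot be given to either name alone.

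Within the gene the copies were alike, and before it they were much less so. srpr-2.1 and srpr-2.2 were identical at 99.0% of aligned positions and srpr-1.1 and srpr-1.2 at 98.3%. The other pairs among these 4 were at 94.0% or 94.3%, and srpr-3 was at 81.7% to 82.7% to the rest. In the 250 bases upstream the 10 SRP pairs had 49.5% to 66.7% identity, and pairs of unlike genes 45.8% to 53.7%. Over the last 60 bases before the gene, srpr-1.1 and srpr-1.2 had 98.3%. The other pairs among these 4 copies had 59.7% to 70.0%, with srpr-2.1 and srpr-2.2 at 63.8%. There srpr-3 had 47.8% to 49.3% to the rest, and pairs of unlike genes had 41.8% to 53.7%. Identity counts gaps as differences.

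**Figure D1:**
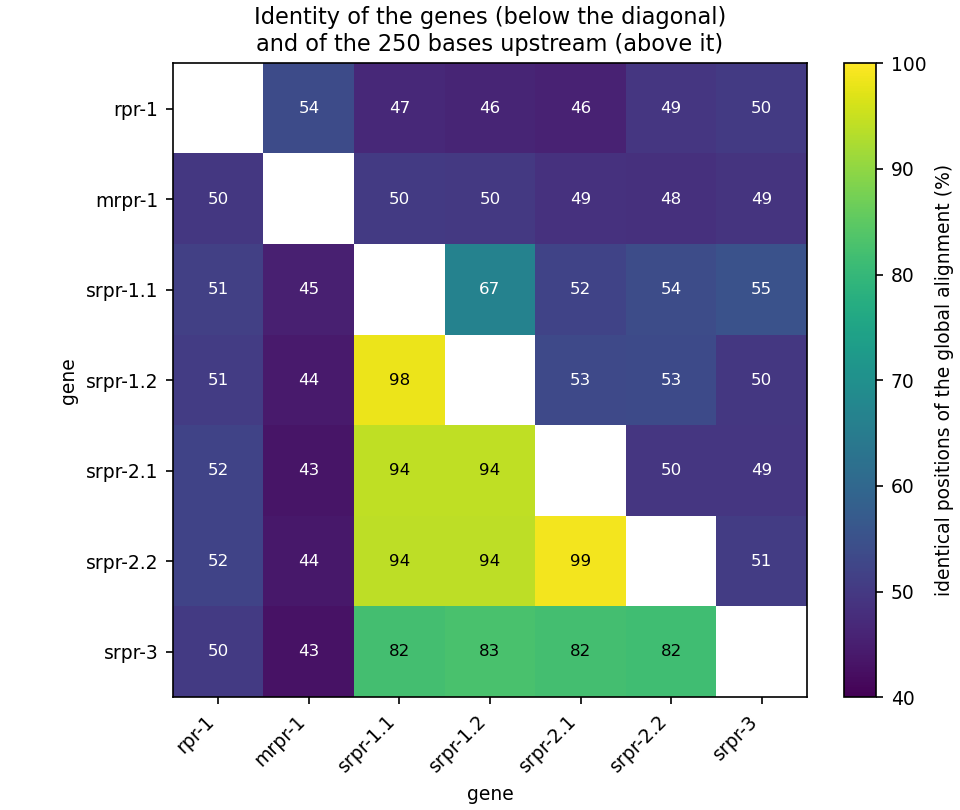
Percent of identical positions in global alignments of each pair of the 7 genes, below the diagonal for the whole gene and above it for the 250 bases upstream. The SRP RNA genes form a block of 81.7% to 99.0% below the diagonal, while above it the highest value is 66.7%, for srpr-1.1 and srpr-1.2.

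The starts of the 5 SRP RNA genes are printed to show this likeness around the first base of the gene. Between srpr-1.1 and srpr-1.2 it runs over the whole printed stretch, apart from single-base differences. Each line runs 5′ to 3′ along the gene, with 90 bases before the gene in lower case and its first 40 bases in capitals: srpr-1.1 at chrIII:4379167-4379296 (minus), srpr-1.2 at chrIII:4369378-4369507 (plus), srpr-2.1 at chrIII:5211130-5211259 (plus), srpr-2.2 at chrIII:5031669-5031798 (minus) and srpr-3 at chrV:9293593-9293722 (minus).
srpr-1.1: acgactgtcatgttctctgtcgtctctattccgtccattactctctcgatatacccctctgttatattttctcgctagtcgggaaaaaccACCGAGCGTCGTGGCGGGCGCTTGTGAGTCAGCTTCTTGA
srpr-1.2: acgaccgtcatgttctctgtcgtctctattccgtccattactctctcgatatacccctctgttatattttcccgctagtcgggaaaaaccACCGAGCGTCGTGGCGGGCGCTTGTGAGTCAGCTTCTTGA
srpr-2.1: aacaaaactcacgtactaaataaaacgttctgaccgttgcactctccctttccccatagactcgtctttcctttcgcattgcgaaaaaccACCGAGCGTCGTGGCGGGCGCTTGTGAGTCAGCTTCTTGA
srpr-2.2: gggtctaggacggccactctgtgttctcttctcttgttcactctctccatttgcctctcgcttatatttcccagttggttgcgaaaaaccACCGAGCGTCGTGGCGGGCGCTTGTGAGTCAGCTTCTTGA
srpr-3: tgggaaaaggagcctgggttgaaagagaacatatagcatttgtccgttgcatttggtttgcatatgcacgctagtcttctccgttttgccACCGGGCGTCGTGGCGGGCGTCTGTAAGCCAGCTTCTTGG
The word GAAAAACC, found by reading these starts, stood directly before the first base of srpr-1.1, srpr-1.2, srpr-2.1 and srpr-2.2 and was absent from the window of srpr-3. It was in 2.93% of all gene start windows. GTGTCNGCCGC was in none of the SRP windows.

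The whole of srpr-2.2, the copy with the highest signal of the family in the larger list, is printed. It runs 5′ to 3′ on the minus strand of chrIII:5031410-5031708, with capitals at the 3 positions where srpr-2.1 has another base.
srpr-2.2: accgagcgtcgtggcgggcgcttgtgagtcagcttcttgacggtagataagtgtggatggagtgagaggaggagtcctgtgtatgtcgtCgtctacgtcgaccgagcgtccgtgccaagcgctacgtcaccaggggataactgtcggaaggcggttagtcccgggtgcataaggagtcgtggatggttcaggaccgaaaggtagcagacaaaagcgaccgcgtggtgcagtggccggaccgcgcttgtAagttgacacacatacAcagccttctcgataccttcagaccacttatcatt
With positions counted from 1 at the 5′ end and the base of srpr-2.2 first, these are C90T, A249G and A265G. srpr-1.2 and srpr-1.1 differ by G49A and A240T and, in the last bases of the gene, by A297T, C298T and a gap. In all 7 genes a run of TTTT, the usual stop signal of RNA polymerase III, began within the last 4 bases of the annotated gene. The GC content of the genes was 51.0% to 62.9%, lowest in rpr-1 and highest in srpr-3.

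Among the SRP RNA genes srpr-2.2 had the highest signal and srpr-3 the lowest in the larger list. The peak at srpr-2.2 (5031495 to 5031798) had a signal of 152.5 and rank 67 of the 548. Its signals were 87.3 in replicate 1 and 57.0 in replicate 2, in the thresholded set of each. That order puts srpr-2.2 between rpr-1 and mrpr-1 in replicate 1 but below mrpr-1 and srpr-1.1 in replicate 2.

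The srpr-1 copies had almost the same signal in the larger list and differed in the replicates. At srpr-1.1 the peak at 4378744 to 4379047 had 106.3, and at srpr-1.2 the peak at 4369340 to 4369643 had 106.2. srpr-1.1 had 49.5 in replicate 1, where its IDR of 0.0107 was just above the limit, and 59.4 in replicate 2, where it passed with 0.00128. srpr-1.2 had 78.1 in replicate 1, where it passed with an IDR of 0.000714, and 31.9 in replicate 2, where its IDR was 0.823. Each copy was thus in the set of 1 replicate only, and not the same one.

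In the larger list srpr-2.1 and srpr-3 had lower signals than the other genes and were not in its thresholded set. The candidate at srpr-2.1 (5211238 to 5211541) had a signal of 66.6 there with an IDR of 0.658, and the same interval passed in the conservative set with an IDR of 0.00345. Its signals were 36.2 in replicate 1 (IDR 0.211) and 41.6 in replicate 2 (IDR 0.00423), where a second thresholded peak of signal 17.7 also lay in the gene. The candidate at srpr-3 (9293292 to 9293595) had a signal of 60.4 and an IDR of 0.0141 in the larger list and 0.0206 in the conservative one. Its signals were 27.6 in replicate 1 and 36.1 in replicate 2, with IDRs of 0.835 and 0.177. srpr-3 lay close to the limit in the lists that join the replicates and far from it in each replicate's own list.

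Set beside the tRNA, snRNA, snoRNA and rRNA genes, with genes without a candidate counted as lower, the signal of rpr-1 in the larger list was above that of 99.2% of them. The share was 95.6% for srpr-2.2, 94.7% for mrpr-1, 89.8% for srpr-1.1 and srpr-1.2, 81.9% for srpr-2.1 and 79.9% for srpr-3. In replicate 1 the order by signal was rpr-1, srpr-2.2, srpr-1.2, mrpr-1, srpr-1.1, srpr-2.1 and srpr-3. In replicate 2 it was rpr-1, mrpr-1, srpr-1.1, srpr-2.2, srpr-2.1, srpr-3 and srpr-1.2, so only rpr-1 held its place in both.

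**Figure D2:**
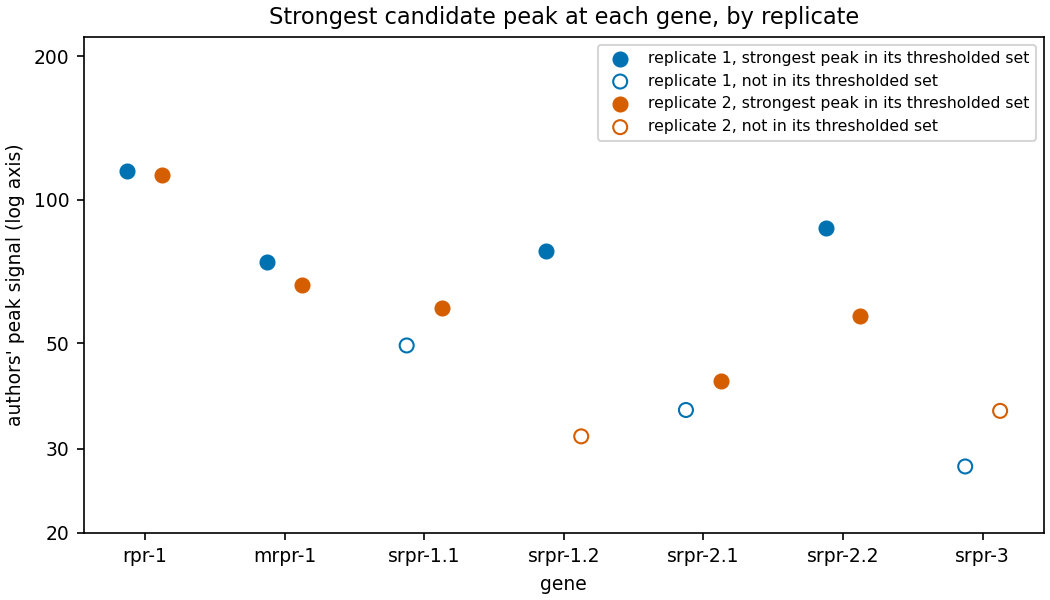
Authors' signal (log axis) of the strongest candidate peak within 250 bp of each gene in the ranked list of replicate 1 (blue) and replicate 2 (orange), filled where that peak is in the replicate's thresholded set. rpr-1 is highest in both replicates and its values differ least, srpr-1.2 has 78.1 and 31.9, and srpr-3 is open in both.

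The gap between the replicates was large at 1 of the genes. Over the 502 of the 548 thresholded peaks that held a candidate summit of both replicates, the log2 ratio of replicate 1 to replicate 2 had a median of 0.16, and the middle 90% lay between -0.72 and 0.98. srpr-1.2, at 1.29, was above this range. The other genes lay within it: rpr-1 at 0.03, mrpr-1 at 0.16, srpr-2.2 at 0.61, srpr-2.1 at -0.20, srpr-1.1 at -0.26 and srpr-3 at -0.39. The lists were made separately, so the ratio is read only against this range.

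**Figure D3:**
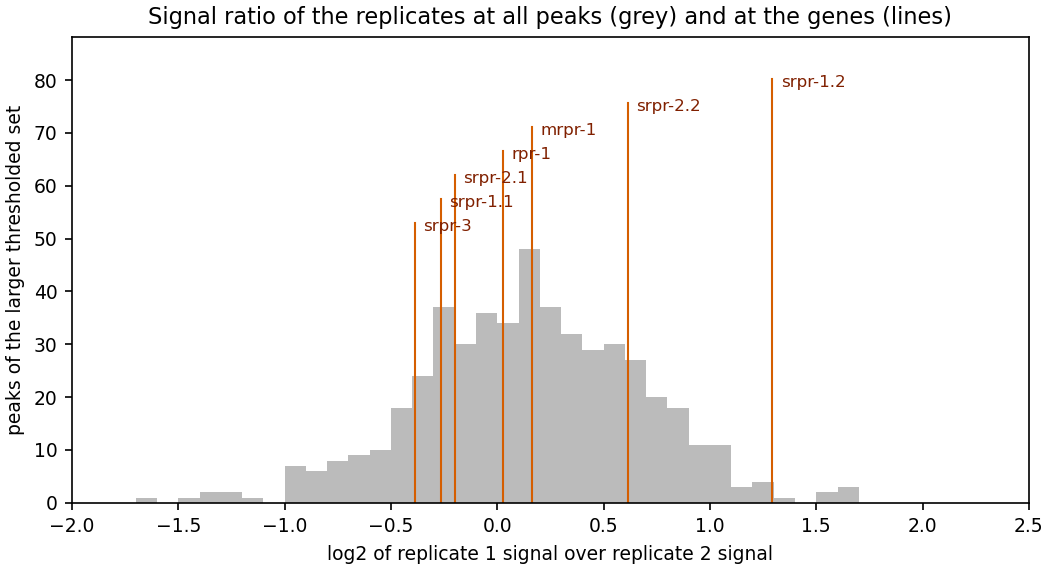
Histogram of the log2 ratio of replicate 1 to replicate 2 signal at the 502 peaks of the larger thresholded set with candidates of both (grey), and the same ratio at each of the 7 genes (orange lines, whose height has no meaning). The line of srpr-1.2 at 1.29 stands right of the bulk of the histogram, and the other lines stand within it.

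Of the pairs of near copies, srpr-2.2 was above srpr-2.1 in both replicates, and the order of srpr-1.2 and srpr-1.1 turned between them. The signal of srpr-2.2 was 2.41 times that of srpr-2.1 in replicate 1 and 1.37 times in replicate 2. The log2 ratio was 0.86 ± 0.58 (SD, n = 2), a wide spread beside its mean. The signal of srpr-1.2 was 1.58 times that of srpr-1.1 in replicate 1 and 0.536 times in replicate 2, a log2 ratio of -0.12 ± 1.1 (SD, n = 2), so the copies of this pair did not differ beyond the spread of the replicates. For rpr-1 over mrpr-1 the log2 ratio was 0.70 ± 0.09 (SD, n = 2).

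Summits lay near the start of the gene at some members and far from it at others. In nearly all cases a summit is the middle of a peak of fixed width: 533 of the 548 larger peaks were 304 bp wide, and the fixed width was 300 bp in replicate 1 and 276 bp in replicate 2. Distances are counted from the annotated start along the strand of the gene. The summit at rpr-1 lay 23 bp into the gene in the larger list, 23 bp in replicate 1 and 20 bp in replicate 2. The summit at mrpr-1 lay at 36 bp, with 73 bp in replicate 1 and 16 bp in replicate 2. At srpr-1.2 it lay at 24 bp, with 9 bp in replicate 1 and 28 bp in replicate 2. These 3 genes had their summits over the first part of the gene in every list.

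The other SRP RNA genes had summits further in within each list, though in replicate 1 srpr-2.2 at 74 bp was next to mrpr-1 at 73 bp. srpr-2.2 had its summit at 61 bp in the larger list, 74 bp in replicate 1 and 97 bp in replicate 2. srpr-3 had it at 188 bp, 195 bp and 136 bp in the same order. srpr-2.1 had it at 170 bp, 197 bp and 69 bp, and its gap of 128 bp between replicates was the widest of the 7. At srpr-1.1 the summit was past the end of the gene, 310 bp from the start in the larger list, 299 bp in replicate 1 and 346 bp in replicate 2, and the summit of the larger list lay in the annotated 3′ untranslated region of pals-26. Over the 7 genes the median gap between the replicates' summits was 47 bp.

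The SRP copies hold long stretches that occur elsewhere in the genome, and the share of such sequence around the summit differed between copies. Of the 31-base words of the gene, 87.3% occurred more than once in the assembly at srpr-1.1, 75.5% at srpr-1.2, 72.5% at srpr-2.1 and 71.0% at srpr-2.2, and no word lying wholly in the gene did at srpr-3, rpr-1 or mrpr-1. With words of 101 bases, a length chosen after the data were seen, the shares were 45.5%, 45.2%, 29.1% and 29.1% for the 4 copies and 0 for the other 3 genes. At srpr-1.1 and srpr-1.2 the repeated sequence, apart from single-base breaks, began 84 bases before the start, and at srpr-2.1 and srpr-2.2 it began 12 bases before it. In the 201 bp around the summit of the larger list the share of repeated words was 14.6% at srpr-1.1, where the summit is outside the gene, and 63.7%, 74.9% and 66.1% at srpr-1.2, srpr-2.1 and srpr-2.2. Of the 548 thresholded peaks, 11.9% had a share above 50%. The sources used here do not say whether reads with several equal matches were kept, and the part of repeated sequence in the signals and summits of these 4 genes was not tested. At rpr-1, mrpr-1 and srpr-3 no repeated word lay around the summit.

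**Figure D4:**
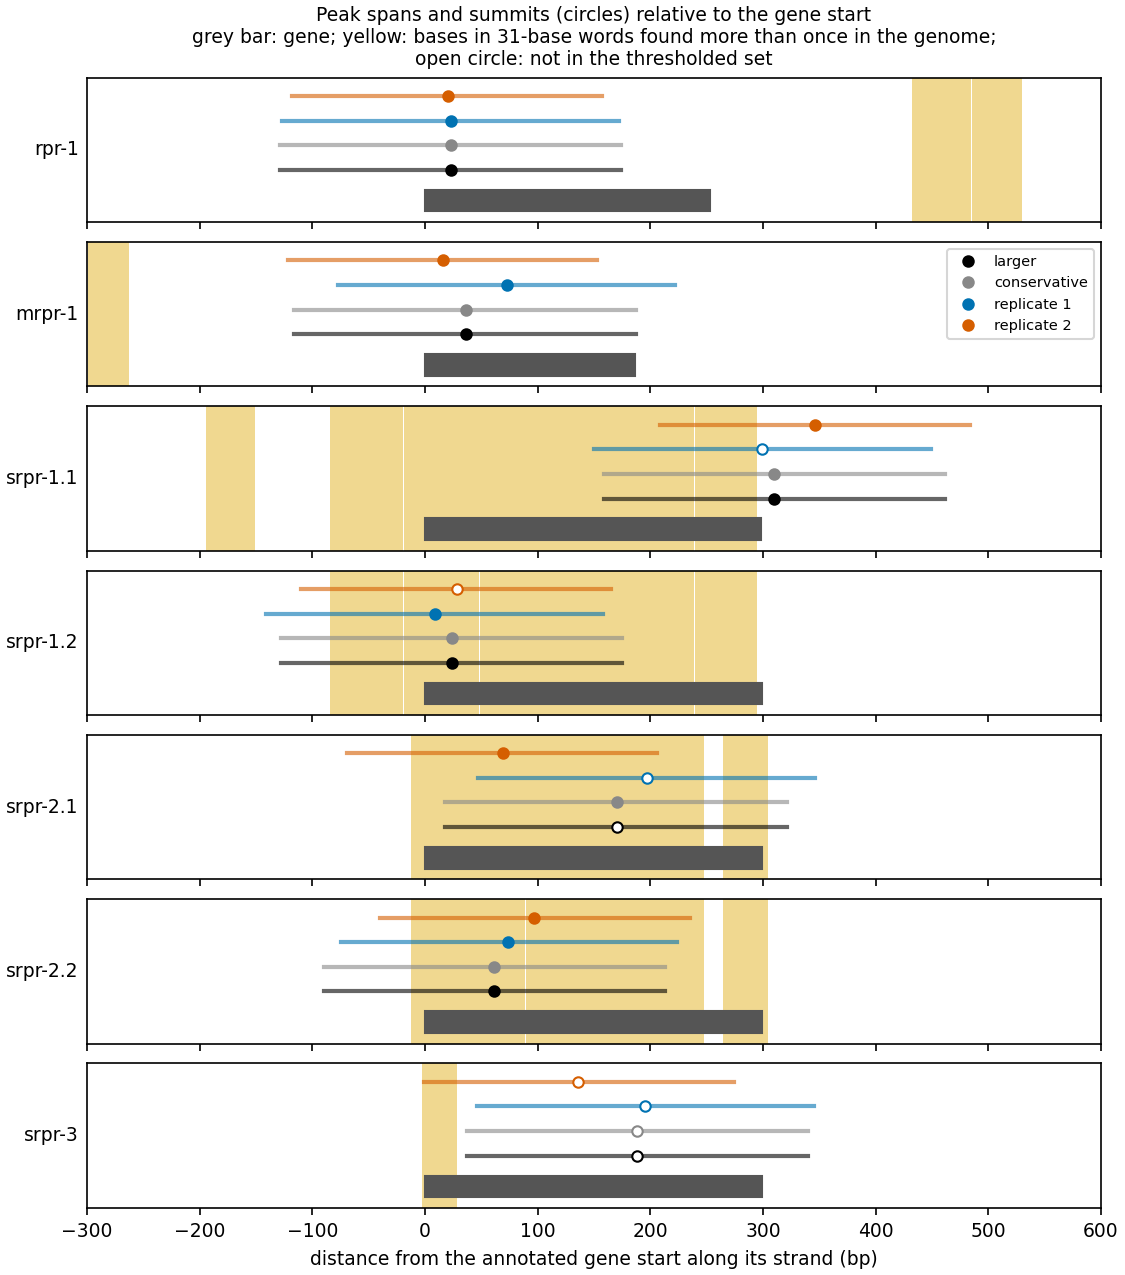
Spans of the strongest candidate peak (lines) and its summit (circles, open where the peak is not in the thresholded set) in the larger, conservative, replicate 1 and replicate 2 lists, by distance in bp from the annotated start of each gene (grey bar) along its strand; yellow marks bases in 31-base words found more than once in the genome. Summits sit at most 73 bp into the gene at rpr-1, mrpr-1 and srpr-1.2 and past the end at srpr-1.1. Yellow covers most of the 4 SRP copies but none of rpr-1 or mrpr-1.

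Further candidates near the genes had lower signals than the strongest candidate of the same gene. Some were still above the median signal of the larger ranked list, 19.4. Within 250 bp the larger list had a second candidate at srpr-1.1, with its summit 90 bp into the gene and a signal of 25.1, and at srpr-1.2, with its summit 165 bp past the end and a signal of 31.5. The first of these was in the conservative set, with paired signals of 28.8 and 59.4, the higher of which is also in the pair of the stronger srpr-1.1 peak, so these 2 intervals are not separate evidence. The nearest candidate outside the limit of 250 bp lay 314 bp from srpr-3 and had a signal of 10.3.

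The signal at each gene stood above that of the candidates in its surroundings, by little at srpr-3. Between 250 and 2000 bp from the gene the larger list had 3 to 7 candidates per gene, none of them with a signal above 34.9. The strongest candidate at rpr-1 was 8.70 times the strongest of these, at srpr-2.2 5.94 times, at srpr-1.2 4.85 times, at mrpr-1 4.02 times and at srpr-1.1 3.67 times. At the genes outside the larger set it was 2.23 times (srpr-2.1) and 1.77 times (srpr-3). The lists of the single replicates gave lower ratios at several genes. In replicate 1 the ratio was 6.11 at rpr-1, 3.82 at srpr-1.2, 3.72 at mrpr-1, 2.03 at srpr-1.1 and 1.29 at srpr-3, and srpr-2.1 and srpr-2.2 had no candidate in the surroundings. In replicate 2 it was 6.48 at rpr-1, 4.44 at mrpr-1, 3.79 at srpr-1.1, 3.66 at srpr-2.2 and 1.65 at srpr-2.1, and srpr-1.2 and srpr-3 had no such candidate.

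**Figure D5:**
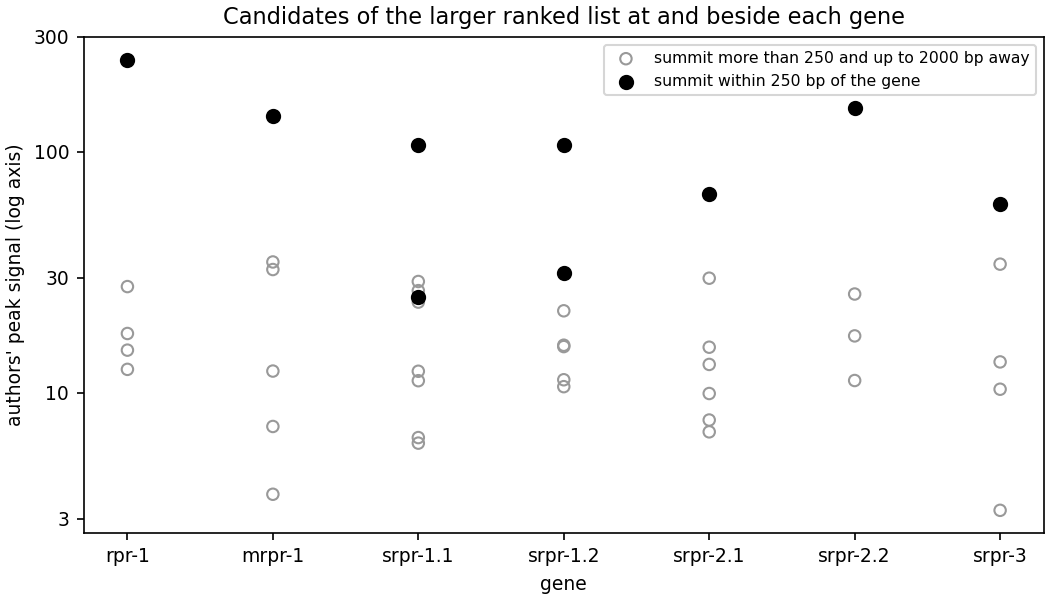
Authors' signal (log axis) of every candidate of the larger ranked list with its summit within 250 bp of each gene (black) and from there to 2000 bp away (grey). At each gene the highest point is black, and the gap to the highest grey point is widest at rpr-1, 8.70 times, and narrowest at srpr-3, 1.77 times.

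The letters of tRNA promoters and of the goosecoid-class site were looked for in the same windows of the 7 genes, 250 bases before to 50 bases after the start on both strands. The B box core GTTCGA, which was in 10.3% of all windows and 17.2% of those of tRNA genes, was in none of the 7, and neither were the longer B box (0.906% of all windows), of which GTTCGA is the core, the A box of tRNA genes (0.467%) and the GC box GGGCGG (5.78%). TAATCC, the core known for goosecoid-class homeodomains, was in 9.02% of all windows and in none of the 7. The windows end 50 bases into the gene, so the part of a gene beyond that was not searched, and even among tRNA genes only 8.01% of windows held the longer B box and 9.80% the A box. In the 101 bp around the summits of the larger list TAATCC stood once, 38 bases to the lower-coordinate side of the summit of srpr-1.1. That place, chromosome III, 4378858 to 4378863, is within pals-26. Among all 548 thresholded peaks TAATCC stood at 2.55%, a share over 101 bp that cannot be set against the 9.02% of the longer windows. These are letters in fixed windows and not sites. The 201 bp around the summits had a median GC content of 56.7% at the 7 genes and 46.8% at the 548 peaks, and base composition sets how often such words occur.

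Genes of the proteins that work with these RNAs were counted for comparison, by whether a summit of the larger set lay between 2000 bp before and 500 bp after a transcript start, which 2.15% of protein-coding genes had. None of the 4 RNase P and MRP protein genes found in the annotation (popl-1, popl-4, popl-5 and popl-7) had one. Neither did any of the 11 genes listed for RNA polymerase III and its factors, among them sbds-1, which is not such a factor. None of the 7 genes of SNAPc, the complex that binds the proximal sequence element, had one. Of the names on these lists, 8, 9 and 2 in that order were not found in the annotation. Of the 12 genes of the translocon and signal peptidase, 4 had one. These were spcs-3, a signal peptidase subunit gene, with a signal of 429.0 and the summit 1053 bp upstream; spcs-2, another subunit gene (88.2, at 134 bp upstream); sec-61.G, the gamma subunit of the Sec61 channel (78.0, at 273 bp upstream); and dnj-29, a J-domain protein gene (93.1, at 125 bp upstream). No tRNA, snRNA, snoRNA, rRNA or ncRNA gene lay within 250 bp of these 4 summits. The lists are short, spcs-3 was known to have a strong peak when they were written, and nothing is called particular to them.

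Other RNA genes with signals like those of the 7 were found by the distance of the log2 signals in the lists of replicate 1 and replicate 2, over 2167 RNA genes with a candidate in both. Nearest to rpr-1 was a tRNA-Thr gene (WBGene00014474, chromosome X, 12563788 to 12563859), with 107.1 in replicate 1 and 117.4 in replicate 2, and the ncRNA gene R01H5.2 over the same place. Nearest to mrpr-1 was a tRNA-Met gene (WBGene00022923, chromosome III, 8106653 to 8106725), with 74.4 and 66.2, and C14B9.14, which overlaps it. The neighbouring ncRNA genes T28D6.10 and T28D6.13 were nearest to srpr-1.1 (49.4 and 59.0 in the same order). The spliced leader gene sls-2.4, with the overlapping R12E2.18, was nearest to srpr-1.2, with 81.1 and 33.9. Because genes were picked by closeness in both lists, its wide gap between replicates follows from that choice. For srpr-2.2 the overlapping R144.16 has the same peak, and the snoRNA gene T19B4.8 came next, with 81.4 and 56.1. All of these genes had a peak in the larger set. The likeness is over 2 samples and says nothing of shared function.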

How the data were processed

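Per the labels, both samples are anti-GFP ChIP-seq libraries from sonicated chromatin, with fragments selected at 200 to 800 bp. The authors deposited narrowPeak lists on ce11: a ranked list with a thresholded set in a larger and a conservative version, and the same for each replicate. Peak signal is the authors' deposited value, and the −log10 of the global IDR was turned into the IDR. For the aligner and the caller of peaks, tool and version were not given in the sources used here. Of the larger list, 124 peaks with an IDR of at most 0.01 are absent from its thresholded set, and 118 of the conservative list; the further input of the thresholded sets is not described. Replicate pairs in the conservative list are not named and were used unordered.

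Genes came from Ensembl release 115 (WBcel235, ce11 coordinates; all ranked peaks fell within its chromosomes), sequences and tRNA products from RefSeq of the same assembly. A gene's value is its strongest candidate with the summit within 250 bp. Identity came from global alignment (Biopython 1.88). No test was run. Of 72 names on the lists of protein genes, 31 are not symbols of this annotation. The list of SRP protein and receptor genes is not reported here. The functions for distance and window were tested on simulated data. The members, the lists and the rule for naming genes (the 7 genes, their neighbours, list genes with a peak, and the 2 nearest RNA genes by signal for each member in the larger set) were chosen with earlier results of these data known. Python 3.11.15, numpy 2.4.6, pandas 2.3.3 and matplotlib 3.10.9 were used.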

Additional observations from a re-analysis of the deposited data

How the results depend on the processing

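The count of genes with a thresholded peak was 5 of 7 in the larger set and 3 of 7 (rpr-1, mrpr-1 and srpr-2.2) at an IDR of at most 0.001, where fewer peaks remain by construction. With either replicate left out, that is in the set of the other replicate alone, it was 4 to 5, and it was 6 in the conservative set and 5 with summits within 100 bp, within 500 bp or with any overlap of peak and gene. No paired analysis was possible because the series holds 1 group and no result comes from a test. Of 77 recomputed values, 25 moved, which means by over 1.5 times for the count of genes, by more than the spread of the replicates for signal percentiles and summit positions, and at all for other values, and no summit position changed sign; the largest moves of position were at srpr-1.1, where the candidate nearest to the start had its summit at 90 bp instead of 310 bp, and at srpr-2.1, at 69 bp instead of 170 bp without replicate 1. The cause was not tested. A pair of samples, an unknown depth and summits set at the middle of peaks of fixed width limit the precision of every value.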
